A study of Mus musculus with 8 samples.

Results

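The genes of the mouse egg coat, Zp1, Zp2 and Zp3, those of the oocyte growth factors, Gdf9 and Bmp15, and the oocyte-secreted protein gene Oosp1 were followed in fully grown oocytes of mice labelled as Dicer knockouts. They were taken as every probe set whose single symbol in the platform annotation was one of the 6 names, which gave 8 probe sets of 45037 tested and all 6 genes of the 18193 measured. Each of 8 mice gave 1 Affymetrix mouse genome 430 version 2 array, 4 mice being labelled Dicer knockout and 4 wild-type, all females of a 129/C57BL6 background. All mice had been primed with equine chorionic gonadotropin (eCG), a hormone that makes follicles grow, and RNA came from 20 germinal vesicle-intact oocytes per mouse after the cumulus cells had been pipetted off. The labels name neither the deleted exons, nor a Cre driver, nor an age. A Cre transgene under the Zp3 promoter is widely used to delete genes in growing oocytes, and whether it was carried here is not given in the sources used here.

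The zona pellucida is the glycoprotein coat that the growing oocyte secretes around itself, that sperm bind and that hardens after fertilisation. In the mouse it is built from ZP1, ZP2 and ZP3, of which ZP2 and ZP3 form the filaments and ZP1 links them. GDF9 and BMP15 are ligands of the TGF-beta superfamily that the oocyte secretes to direct its granulosa and cumulus cells, alone or as a heterodimer. They act through the type 2 receptor BMPR2 and type 1 receptors on those cells, with SMAD proteins carrying the signal. OOSP1 is an oocyte-secreted protein of less well known function. Dicer cuts microRNAs and endogenous short interfering RNAs from their precursors, and both can lower the transcripts they match.

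Dicer1, the gene the labels name as knocked out, read higher in the knockout group, not lower. Probe set 1427941_at read 14.35, 14.32, 14.26 and 14.36 on knockout arrays 1 to 4, against 13.31, 13.07, 13.10 and 13.04 on wild-type arrays 1 to 4, and 1460571_at read 12.38, 12.36, 12.38 and 12.11 in knockout, against 11.39, 11.79, 11.62 and 11.67 in wild type. The groups did not overlap on either, and Dicer1 rose 2.28-fold and 1.61-fold (adjusted p = 2.12e-05 and 0.0017, limma). A probe set outside the deleted exons does not check a genotype, and the exons are not given in the sources used here, so "knockout" and "wild type" stand for arrays labelled so and every direction below rests on those labels.

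The DNA just upstream of these genes is where oocyte transcription factors act, and RefSeq promoter windows of build GRCm38.p6, from 250 bases before to 50 bases after the transcript start, were matched for 3 of the 6 genes. They are printed because the expression of a regulator of zona genes, Figla, is set beside the zona transcripts below. FIGLA acts with bHLH partners on E-boxes (CANNTG), which are in capitals. The windows lie at chr5:135979855-135980154 on the plus strand for Zp3, at chrX:6320675-6320974 on the minus strand for Bmp15 and at chr19:11691002-11691301 on the minus strand for Oosp1.
Zp3: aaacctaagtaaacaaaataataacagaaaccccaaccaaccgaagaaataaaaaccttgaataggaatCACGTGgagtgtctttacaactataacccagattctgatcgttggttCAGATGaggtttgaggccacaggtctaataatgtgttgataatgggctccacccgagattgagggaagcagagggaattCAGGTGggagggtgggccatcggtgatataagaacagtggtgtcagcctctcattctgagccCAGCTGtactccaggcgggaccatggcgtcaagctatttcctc
Bmp15: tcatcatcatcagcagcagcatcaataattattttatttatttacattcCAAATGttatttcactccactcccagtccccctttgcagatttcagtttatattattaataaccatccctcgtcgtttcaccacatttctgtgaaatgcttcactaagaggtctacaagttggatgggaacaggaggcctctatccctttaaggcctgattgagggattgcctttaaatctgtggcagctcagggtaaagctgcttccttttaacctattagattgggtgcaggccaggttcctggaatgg
Oosp1: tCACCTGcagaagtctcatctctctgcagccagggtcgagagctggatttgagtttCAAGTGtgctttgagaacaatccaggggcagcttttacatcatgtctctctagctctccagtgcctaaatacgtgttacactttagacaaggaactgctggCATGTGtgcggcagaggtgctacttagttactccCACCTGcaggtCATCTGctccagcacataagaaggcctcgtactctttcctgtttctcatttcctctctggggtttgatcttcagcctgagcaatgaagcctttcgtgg
The Zp3 window held 4 E-boxes, the one nearest upstream of the start being CAGGTG, 55 bases before it. The Oosp1 window held 5 and the Bmp15 window held 1. An E-box was found on either strand in 72.3% of 32851 promoter windows of the same length, and 4 or more in 6.49%. The homeodomain element TAATTG, a sequence bound by NOBOX, differs in its letters from an E-box and was searched on both strands. It was in 0 of the 3 windows and in 8.0% of all windows. No other homeodomain sequence was searched, so a lack of NOBOX sites is not shown. These matches describe letters and were not tested as binding sites.

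None of the 8 probe sets passed the test between knockout and wild-type oocytes, and the 4 knockout values overlapped the 4 wild-type values in each. The test was limma on the deposited log2 signals over all 45037 probe sets, with adjusted p (Benjamini-Hochberg) under 0.05 counting as passing. By that rule 16.1% of all probe sets passed (6.82% higher and 9.31% lower in knockout), as did 21% of all genes, 0 of the 8 probe sets had an unadjusted p under 0.05, and their adjusted p lay between 0.515 and 0.99. Log2 differences (knockout minus wild type) ran from -0.068 to -0.0025. Their 95% intervals reached at most -0.28 and 0.19, or 0.822-fold and 1.14-fold. All 8 means were lower in knockout, whereas under cyclic loess scaling 7 of the 8 were higher. The median was -0.025 over the 8 probe sets and 0.016 over all probe sets.

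**Figure D1:**
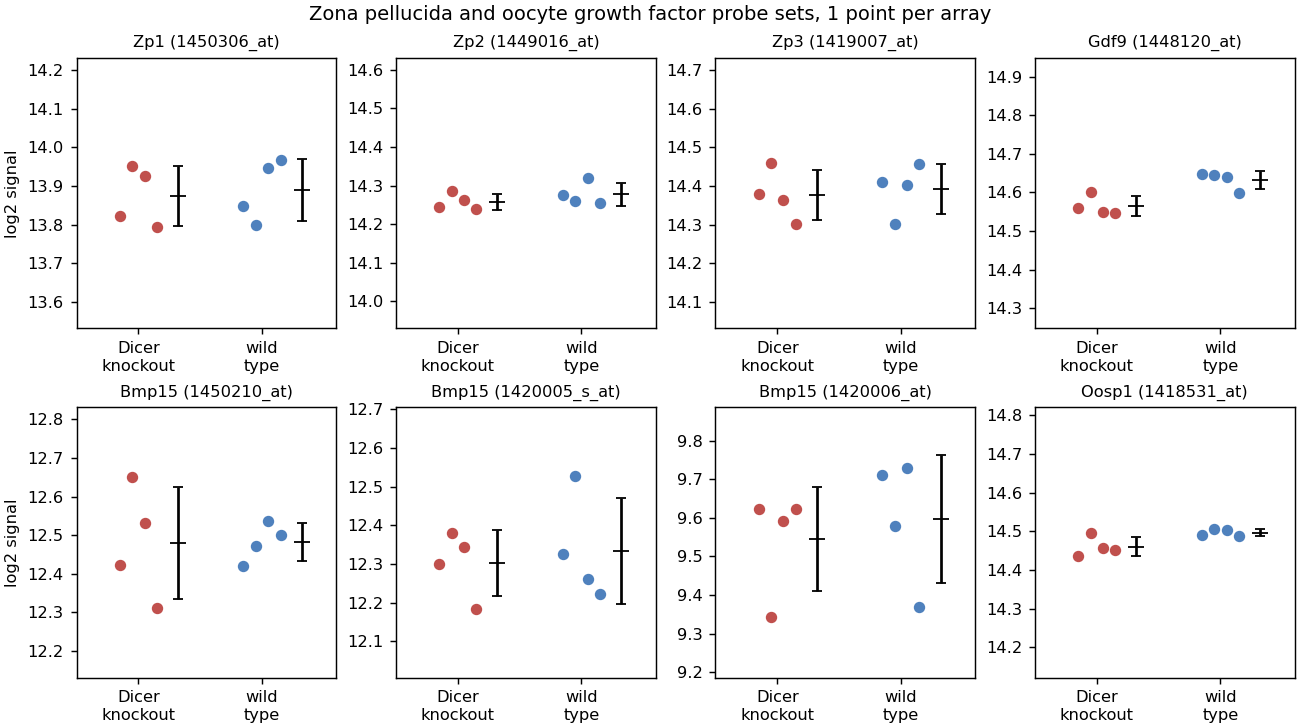
Log2 signal of the 8 probe sets on each array, with Dicer knockout (red) left of wild type (blue) and the group mean with its SD as a black bar (n = 4 each); every panel spans the same height on the log2 axis. The groups overlap in all 8 panels, and the knockout points for Gdf9 sit mostly below the wild-type points.

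Zp1, the filament cross-linker, read 13.82, 13.95, 13.93 and 13.79 on knockout arrays 1 to 4, against 13.85, 13.80, 13.95 and 13.97 on wild-type arrays 1 to 4. Each group held both high and low arrays, so the ranges nearly coincided. The means were 13.87 ± 0.077 in knockout and 13.89 ± 0.0797 in wild type (SD, n = 4 each), a log2 difference of -0.016 ± 0.0734 (SE) with a 95% interval of -0.18 to 0.15. Zp2, the subunit cleaved when the zona hardens, read 14.24, 14.29, 14.26 and 14.24 on knockout arrays, against 14.28, 14.26, 14.32 and 14.25 on wild-type arrays. All 8 Zp2 values lay within 0.0812, one of the tightest spreads of the 8 probe sets. The Zp2 difference was -0.020 ± 0.0606 (SE), with an interval of -0.16 to 0.12. Zp3, the other filament subunit, read 14.38, 14.46, 14.36 and 14.30 on knockout arrays, against 14.41, 14.30, 14.40 and 14.46 on wild-type arrays. The lowest and highest Zp3 arrays of the groups were alike, at 14.30 and 14.46 in knockout and 14.30 and 14.46 in wild type. Its difference was -0.016 ± 0.0693 (SE), with an interval of -0.17 to 0.14.

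Gdf9, the growth factor without which follicles stop at the primary stage in mice, had the largest difference among the 6 genes. It read 14.56, 14.60, 14.55 and 14.55 on knockout arrays, against 14.65, 14.64, 14.64 and 14.60 on wild-type arrays. The groups overlapped only through knockout array 2 (14.602) and wild-type array 4 (14.599). The difference was -0.068 ± 0.0604 (SE), or 0.954-fold, with an interval of -0.20 to 0.067 (adjusted p = 0.515, limma). The SDs were 0.0256 in knockout and 0.0228 in wild type (n = 4 each), both below the SE of the difference. That SE draws on the spread of all probe sets, and the median wild-type SD was 0.045 among probe sets with means of 14 or more and 0.18 among those from 8 to 10. With a robust variance that follows the signal level the adjusted p of Gdf9 was 0.225, the lowest of the 120 values for the 8 probe sets under 15 alternative settings.

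Bmp15, on the X chromosome and the partner of Gdf9, has 3 probe sets, which share 1 gene and are not independent. The brightest, 1450210_at, read 12.42, 12.65, 12.53 and 12.31 on knockout arrays, against 12.42, 12.47, 12.54 and 12.50 on wild-type arrays. Knockout arrays 2 and 4 lay above and below all wild-type arrays, and the means differed by -0.0025 ± 0.0846 (SE). Probe set 1420005_s_at read 12.30, 12.38, 12.34 and 12.18 in knockout, against 12.32, 12.53, 12.26 and 12.22 in wild type. Probe set 1420006_at was the dimmest of the 8, at 9.62, 9.34, 9.59 and 9.62 in knockout, against 9.71, 9.58, 9.73 and 9.37 in wild type. Their differences were -0.031 ± 0.0868 and -0.052 ± 0.103 (SE). The 3 probe sets did not order the arrays alike: knockout array 2 was the highest knockout array in the 2 brighter ones and the lowest in the dimmest.

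Oosp1, the oocyte-secreted protein gene on chromosome 19, read 14.44, 14.49, 14.46 and 14.45 on knockout arrays, against 14.49, 14.51, 14.50 and 14.49 on wild-type arrays. Knockout array 2 alone lay inside the wild-type range. The wild-type SD was 0.00902, and the difference was -0.036 ± 0.0597 (SE), with an interval of -0.17 to 0.098. Its relatives Oosp2 and Oosp3 are the nearest measured protein-coding genes on either side. Oosp2 read 13.52, 13.48, 13.47 and 13.55 in knockout, against 13.82, 13.73, 13.81 and 13.72 in wild type. The groups did not overlap, as in 21.2% of all probe sets, and Oosp2 fell by 0.27 in log2 (SE 0.0642, adjusted p = 0.0196, limma). That call ended without knockout array 2 (adjusted p = 0.0502) and under cyclic loess scaling (adjusted p = 0.0509). Oosp3 read 13.92, 14.04, 13.99 and 13.89 in knockout, against 14.19, 14.18, 14.13 and 14.20 in wild type, and did not pass (log2 -0.21, adjusted p = 0.057, limma). Whether Oosp2 or Oosp3 differed from Oosp1 in response was not tested.

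**Figure D2:**
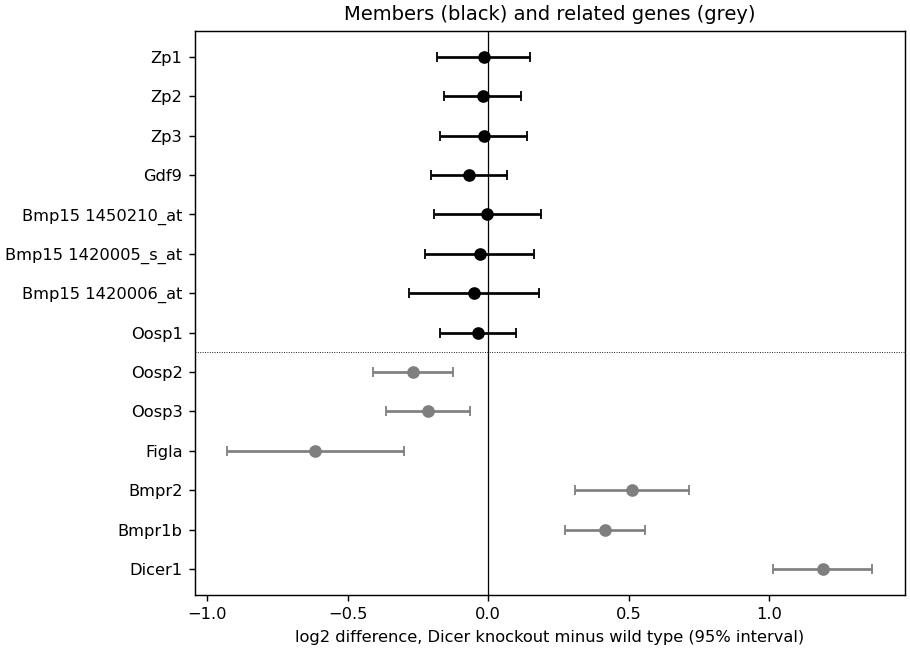
Log2 difference (knockout minus wild type, horizontal axis) with its 95% interval for the 8 member probe sets in black, above, and for Oosp2, Oosp3, Figla, Bmpr2, Bmpr1b and the brighter Dicer1 probe set in grey, below. All black intervals cross 0, while those of the grey genes lie to one side of it, although Oosp3 did not pass after adjustment. The grey genes were chosen with their values known. Intervals of other related genes not drawn cross 0, such as Lhx8 (-0.11 to 0.16) and Bmp6 (-0.13 to 0.20).

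The 12 measured protein-coding neighbours of the 6 genes, 1 on each side, comprised 4 that fell and 0 that rose, where 12.8% of all genes fell and 8.18% rose. Besides Oosp2 these were Anks4b next to Zp2 (log2 -0.63), Dtx2 next to Zp3 (log2 -0.29) and Ezhip next to Bmp15 (log2 -0.30), named after their values were seen. Uqcrq, a respiratory complex III subunit next to Gdf9, read 11.58 ± 0.13 in knockout and 11.80 ± 0.249 in wild type (SD, n = 4 each) and did not pass (adjusted p = 0.296, limma). The calls of Dtx2 and Ezhip ended under cyclic loess scaling (adjusted p = 0.0741 and 0.0594), and without any 1 of 5 and of 6 arrays (adjusted p up to 0.0821).

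The 6 genes gave some of the brightest signals on the arrays, close to the upper end of the scale. The array maxima lay between 14.81 and 14.90. Gdf9 lay 0.214 to 0.332 below its array's maximum, Oosp1 0.326 to 0.455, Zp3 0.357 to 0.581 and Zp2 0.559 to 0.647. Between 5 and 8 probe sets were brighter than Gdf9 on any array. The share of probe sets that passed was 5.44% with a mean under 6, 17.9% from 6 to 8, 32.6% from 8 to 10, 30.1% from 10 to 12, 22.9% from 12 to 13, 16% from 13 to 14 and 8.43% at 14 or more. The median absolute difference was 0.28 from 8 to 10, where the dimmest Bmp15 probe set lies, and 0.047 among the 83 probe sets at 14 or more. Bright probe sets did pass in places, with differences in the brightest class between -0.30 and 0.53. Bmp15 is the member farthest from the maximum, by 2.22 or more on every array, in a class of 1463 probe sets. Saturation of the bright probes was not tested. These signal classes were chosen after the values were seen.

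**Figure D3:**
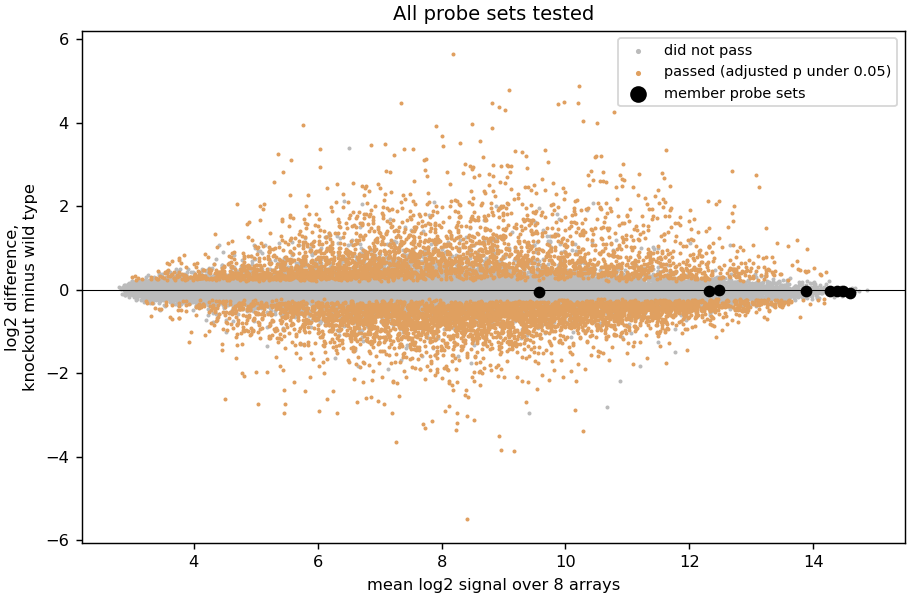
Log2 difference (knockout minus wild type, vertical axis) against the mean log2 signal over 8 arrays (horizontal axis) for 45037 probe sets, orange where the adjusted p was under 0.05, with the 8 member probe sets in black. The black points lie along 0, most of them at the bright end, where the cloud is narrow.

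Among knockout arrays, array 2 read highest for 6 of the 6 genes and array 4 lowest for 5 of 6, taking the brightest probe set of each gene. Over the 83 brightest probe sets, array 2 was the highest knockout array in 42.2% and array 4 the lowest in 38.6%. In wild type the highest array was 1 for 1 gene, 2 for 1, 3 for 2 and 4 for 2. The signals were scaled across arrays by the submitters' method, so a shift common to all transcripts could not be measured. By the labels every array held RNA from 20 oocytes, and RNA per oocyte was not measured.

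The proportions among zona transcripts and between the 2 ligands were compared within each array, which leaves out shifts that an array's probe sets share. The Zp1 minus Zp3 signal was -0.50 ± 0.0496 in knockout and -0.50 ± 0.0445 in wild type (SD, n = 4 each), a change of 0.00050 in log2. That of Zp2 minus Zp3 changed by -0.0033 and that of Zp1 minus Zp2 by 0.0038. Each of these 3 changes was smaller than the SD between arrays. Bmp15 minus Gdf9 was -2.08 ± 0.126 in knockout and -2.15 ± 0.0622 in wild type, a change of 0.066 (exact two-sided permutation p = 0.4). After adjustment over the 4 comparisons all had p = 0.971 in the exact permutation test. Its smallest p before adjustment is 0.0286, so a change in 1 comparison alone could not have passed. These are changes of signal differences, and the offsets between probe sets are not ratios of transcripts.

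Of 12 measured regulators of oocyte transcription, 1 rose and 2 fell, 25% against 21% of all genes. Figla, the bHLH factor required for zona gene expression in mouse oocytes, read 8.56, 8.28, 8.24 and 8.60 in knockout, against 9.37, 8.82, 8.84 and 9.11 in wild type. The groups did not overlap, and Figla fell by 0.61 in log2 (SE 0.14, adjusted p = 0.0153, limma), with a call that held without any single array. Sohlh2, an early oocyte bHLH factor, rose 2.25-fold, and Tcf4, an E-protein, fell by 1.30, a call that ended without 5 of the 8 single arrays (adjusted p up to 0.0725). With the robust variance that follows the signal level Tcf4 did not pass either (adjusted p = 0.0553, limma). Nobox, the homeodomain factor that acts on Gdf9 and Oosp1 in mice, read 13.44 ± 0.0578 in knockout and 13.26 ± 0.0915 in wild type and did not pass (adjusted p = 0.134, limma), although its groups did not overlap. Lhx8 (log2 0.025), Tcf3 (log2 0.10), Tcf12 (log2 -0.25) and Nr6a1 (log2 0.15) did not pass either, by the brightest of their probe sets, though 3 of 5 probe sets of Nr6a1 and 1 of 5 of Tcf12 rose. The list's median was -0.054, against 0.0027 over all genes.

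Of 14 genes listed under zona processing and the egg surface, 5 fell and 0 rose, so that 35.7% passed, against 21% of all genes (12.8% lower). The list also held Tle6 and Padi6, whose proteins lie inside the oocyte. Cd9, the tetraspanin needed for sperm-egg fusion, fell by 0.44 in log2 (9.20 ± 0.125 in knockout and 9.64 ± 0.158 in wild type, SD, n = 4 each). Oosp2 is described above. The others, named to complete the count, were Cd81 (log2 -0.74), the subcortical complex gene Tle6 (log2 -0.33) and the protease Pcsk5 (log2 -0.59). The calls of these 3 ended without any 1 of 3 arrays for Cd81, 6 for Tle6 and 6 for Pcsk5 (adjusted p up to 0.105), and that of Cd9 held each time. Tle6 also lost its call under cyclic loess scaling (adjusted p = 0.0644, limma). When single arrays were left out, 2 to 4 genes of the list fell. Astl, the cortical granule protease that cleaves ZP2, read 12.63, 12.76, 12.59 and 12.36 in knockout, against 12.78, 12.59, 12.71 and 12.81 in wild type. The Astl groups overlapped (log2 -0.14, adjusted p = 0.412). Izumo1r, the oocyte receptor for sperm IZUMO1 (log2 -0.041), Furin, a convertase of secreted proteins (log2 0.096), and Fetub, an inhibitor of the ZP2 protease (log2 0.12), did not pass.

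Of 21 genes listed as receptors and signalling partners of GDF9 and BMP15, 9 passed, or 42.9% against 21% of all genes, with 4 higher and 5 lower. The list also holds genes of wider TGF-beta superfamily signalling, such as Fst. Measured were oocytes, not the granulosa and cumulus cells addressed by GDF9 and BMP15. Bmpr2, their type 2 receptor, read 12.95, 12.81, 13.15 and 12.84 in knockout, against 12.51, 12.43, 12.44 and 12.32 in wild type. The groups did not overlap, and Bmpr2 rose 1.43-fold (adjusted p = 0.00438, limma), in 2 of its 3 probe sets. Bmpr1b, a type 1 receptor, read 12.80, 12.88, 12.82 and 12.76 in knockout, against 12.34, 12.44, 12.40 and 12.41 in wild type. It rose 1.33-fold (adjusted p = 0.00204), in 3 of its 3 probe sets. Htra1, a secreted protease that binds TGF-beta family proteins, rose 2.09-fold. Smad4, the shared SMAD, rose 1.23-fold, a call that ended without any 1 of 4 arrays (adjusted p up to 0.0633). Acvr1 (log2 -0.84), Acvr2b (log2 -0.62), Acvr1b (log2 -0.49) and Bmpr1a (log2 -0.49), further type 1 and type 2 receptors, fell, as did Fst, a secreted antagonist of activins and BMPs (log2 -1.10). Each of Acvr1, Acvr2b and Acvr1b passed in 1 of its probe sets (of 3, 3 and 2), and Bmpr1a in 2 of 6. Tgfbr1, the type 1 receptor of GDF9, did not pass (log2 -0.23, adjusted p = 0.546), nor did Smad2 (log2 0.017) or Smad3 (log2 -0.090), which carry its signal. Bmpr2, Smad4, Acvr1b, Bmpr1a and Fst were named to complete the count. The list's median was -0.045.

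**Figure D4:**
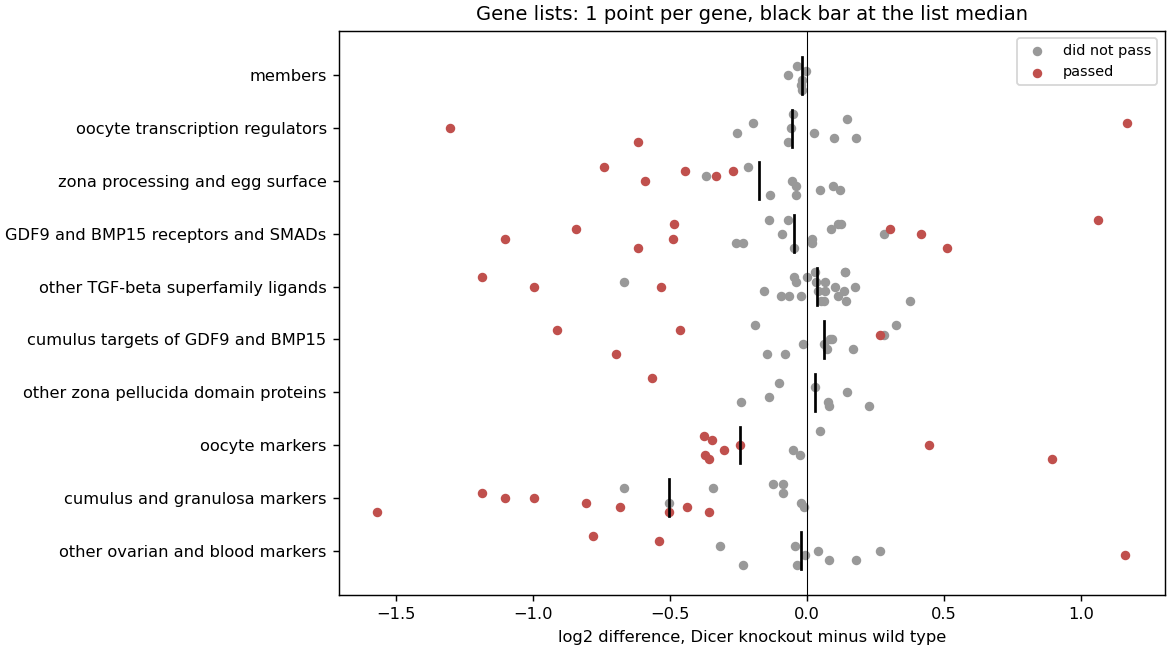
Log2 difference (knockout minus wild type, horizontal axis) of each measured gene in the member list and in 9 related lists, 1 point per gene, red where the adjusted p was under 0.05, with a black bar at each list's median. The 6 members form a tight group at 0, while the receptor and SMAD list has red points on both sides and the cumulus and granulosa list has them on the left.

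Of 26 genes listed as other TGF-beta superfamily ligands, 3 fell and 0 rose, or 11.5%, near the 12.8% of all genes that fell. That list includes Bmp1, which codes for a protease and did not pass (log2 0.053). Tgfb2, a secreted cytokine, fell by 0.53 in log2 (11.85 ± 0.0665 in knockout and 12.38 ± 0.128 in wild type, SD, n = 4 each), in 2 of its 4 probe sets. The inhibin and activin subunit genes Inhbb (log2 -1.18) and Inha (log2 -0.996, named to complete the count) fell too. The call of Inha ended without any 1 of 6 arrays (adjusted p up to 0.0944). Bmp6, another ligand made by oocytes, read 13.18, 13.18, 13.03 and 13.10 in knockout, against 13.06, 13.01, 13.09 and 13.21 in wild type. These overlapped, with a difference of 0.032 (adjusted p = 0.826, limma).

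Of 15 genes that GDF9 and BMP15 are known to raise or maintain in cumulus cells, 1 rose and 3 fell, or 26.7% against 21% of all genes. The RNA came from oocytes after the cumulus cells had been pipetted off. The list therefore does not report what the ligands do in cumulus cells. Tpi1, a glycolytic enzyme, rose 1.20-fold. Sqle, of cholesterol synthesis (log2 -0.46), Ldha, of lactate metabolism (log2 -0.70), and Npr2, the receptor that keeps meiosis arrested (log2 -0.91), fell, Npr2 being named to complete the count. The calls of Tpi1, Ldha and Npr2 ended without any 1 of 7, 6 and 6 arrays (adjusted p up to 0.103, limma), and Sqle passed each time. With array weights Ldha and Npr2 did not pass either. Ldha also lost its call under cyclic loess scaling, and Npr2 with the robust variance that follows the signal level. The cumulus expansion genes Has2, Ptgs2, Ptx3 and Tnfaip6 had low signals, between 3.32 and 5.92 in group means, and did not pass. Of 9 further genes for proteins with a zona pellucida domain, Tgfbr3, the co-receptor betaglycan, fell by 0.56 in log2, and 0 rose (11.1% against 21% of all genes). Umodl1, at 13.58 in knockout and 13.81 in wild type, did not pass (log2 -0.24, adjusted p = 0.0541, limma).

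Of 11 measured oocyte markers, 2 rose and 6 fell, or 72.7% against 21% of all genes, where the zona and growth factor genes gave 0 of 6. Without knockout array 3, 4 of these 8 kept the call, Ddx4, Ooep, Kit and Dppa3 losing it (adjusted p = 0.0892, 0.0604, 0.0547 and 0.0614, limma). Ooep lost it without any 1 of the 8 arrays, and Ooep, Kit and Dppa3 lost it under cyclic loess scaling. Oog4 rose 1.36-fold and Zar1 and Mos fell by 0.35 and 0.36 in log2, all at group means between 13.27 and 14.10. A difference in response between these markers and the 6 genes was not tested. Of 17 cumulus and granulosa markers 9 fell and 0 rose, or 52.9% against 21% of all genes, with a median of -0.50. Nr5a2 (log2 -0.44) and Greb1 (log2 -0.68) had the lowest p, passing in 1 of 4 and in 2 of 4 probe sets. Cyp11a1, counted as fallen by its brightest probe set, had 1 of its 3 probe sets lower and 1 higher. Without knockout array 3, 6 of the 9 kept the call, Fshr, Hsd17b1 and Inha losing it (adjusted p = 0.054, 0.0799 and 0.0944, limma). The linear signals of the 17 summed to 6211 to 8081 in knockout and 9375 to 13510 in wild type. Such sums weigh the brightest probe sets most. Those of the 11 oocyte markers were 114752 to 120926 in knockout and 122092 to 129274 in wild type. Foxl2 (log2 -0.0094), Amh (log2 -0.020) and Kitl (log2 -0.086) were among the cumulus and granulosa markers that did not pass. Of the 17, Fst is also in the receptor list and Inha, Inhba, Inhbb and Amh are in the ligand list. The part of cumulus and granulosa cells in the results above was not tested. Of 12 markers of other ovarian and blood cells, 1 rose (Cd68, 2.24-fold) and 2 fell (Tek, log2 -0.78, and Kdr, log2 -0.54), or 25% against 21% of all genes. The files hold no detection calls, so no marker can be called absent.

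The genes whose signals tracked the 6 most closely were found by the root mean square difference between centred log2 values over the 8 arrays, among 4772 genes with a mean of at least 10. The nearest to Oosp1 were Bms1 (0.0148), a ribosome assembly factor, and Gtsf1 (0.0154), a protein of the piRNA pathway. Gtsf1 (0.0155) and Mrpl35 (0.0207), for a mitochondrial ribosomal protein, were nearest to Zp2, Stt3b (0.0257), for a subunit that glycosylates secreted proteins, and Top3b (0.0274), a topoisomerase gene, to Zp3, and Bms1 (0.0223) and Btbd10 (0.0228) to Gdf9. Resf1 (0.0369), a retroelement silencing factor, and Sec16a (0.0371), a factor of protein export from the endoplasmic reticulum, were nearest to Zp1, and Ncoa4 (0.0327) and Sec16a (0.0342) to Bmp15. The median over all candidates lay between 0.157 and 0.191. Among the members themselves, Zp2 and Oosp1 (0.0199) and Gdf9 and Oosp1 (0.0214) were closest and Gdf9 and Bmp15 (0.0921) farthest apart. A small value here reflects both shared deviations and small ones, and nothing about shared control was tested.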

How the data were processed

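The authors deposited log2 signals per probe set, made with RMA (background correction, normalisation across arrays and probe summary) and Partek per the submitters' processing notes, the versions and build of which no source used here gives. Summary by RMA shrinks differences at low signals, and 2 rounds of amplification favour transcript 3′ ends. The table held 45101 probe sets, of which 64 controls were left out, and 34945 of the rest had 1 symbol, 932 several and 9160 none listed in the platform annotation. With 0 symbols needing an update, a gene was represented by its brightest probe set. Other probe sets of a gene can differ from it. For example, 1 probe set each of Taf4b, Smad5, Cyp51 and Nodal rose, although these genes are counted as not passing. Groups were compared with limma 3.58.1 in R 4.3.3 (lmFit, eBayes, knockout minus wild type, no covariates), Benjamini-Hochberg adjusted over all 45037 probe sets. Gene-level adjusted p-values all come from that limma fit. Folds are 2 to the power of log2 differences. Exact permutation tests used scipy 1.17.1. The fit was also run on simulated data with known changes, all larger than any member difference here, so that run does not bear on the members. As alternatives, dim probe sets were left out, or other scalings, variance models, array weights, the title's first number as a random block, or 1 array fewer were used.

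Named were all member probe sets, Dicer1, of each pathway list the 2 lowest p in each direction among genes past the threshold, and the 2 nearest patterns per member. Further names, those of marker lists included, complete a count or were picked with their values known. The members and lists were chosen with earlier results of these data known. Per the labels the mice are separate samples. Precision is limited by having 4 arrays a group.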

Additional observations from a re-analysis of the deposited data

Results flagged for a closer look

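Each group's 4 values of the 8 probe sets and the 4 within-array differences, 24 sets in all, were searched for an array standing well apart, and 1 was found, where chance gives about 1 in 20. Bmp15 probe set 1420006_at read 9.344 on knockout array 2, below the 9.59 to 9.62 of the other knockout arrays and near the lowest wild-type array (9.37). On the brighter Bmp15 probe sets the same array was the highest knockout array, at 12.65 and 12.38.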

How the results depend on the processing

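Of the 8 member probe sets 0 passed under any of the 15 alternatives (lowest adjusted p 0.225, limma), and likewise 0 of the 6 genes, also when the probe sets of a gene were averaged. Differences lay between -0.13 and 0.076 and their interval bounds between -0.35 and 0.28. The sign of the difference turned in 22 of 120 values. Quantile scaling gave 0.022 for Bmp15 probe set 1450210_at and 0.0022 for 1420006_at. Cyclic loess gave 0.042 for Zp1, 0.031 for Zp2, 0.032 for Zp3, 0.010 for Oosp1, and 0.076, 0.050 and 0.044 for the Bmp15 probe sets 1450210_at, 1420005_s_at and 1420006_at. The cause was not tested. Leaving out single arrays gave -0.046 to 0.011 for Zp1, -0.029 to -0.0053 for Zp2, -0.046 to 0.0086 for Zp3, -0.081 to -0.062 for Gdf9, -0.048 to -0.029 for Oosp1, and -0.060 to 0.053, -0.068 to 0.034 and -0.13 to 0.015 for the same Bmp15 probe sets. The within-array changes were then -0.021 to 0.019 for Zp1 minus Zp3, -0.032 to 0.021 for Zp2 minus Zp3, -0.021 to 0.038 for Zp1 minus Zp2 and 0.021 to 0.116 for Bmp15 minus Gdf9, none with an adjusted exact permutation p under 0.533. With 1 array fewer that test cannot reach a p under 0.05, so none of these changes could have passed. Over all probe sets 7264 passed, and 5597 to 6399 without single arrays (2306 to 2851 higher, 3150 to 3778 lower).

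In the lists, leaving out single arrays gave 1 to 2 regulators lower, 2 to 4 zona processing genes lower, 3 to 4 receptor and SMAD genes higher and 5 to 6 lower, 2 to 3 ligands lower, and 0 to 1 cumulus target higher and 1 to 3 lower. Genes with a zona pellucida domain numbered 2 lower with dim probe sets left out and with median scaling, in place of 1. Of 45 list genes and neighbours past the threshold, 27 passed without any single array and 18 lost the call at least once. With the title's first number as a random block, whose meaning the labels do not give, the consensus correlation was -0.0778 and 0 members passed. The 4 arrays per group limit what could be detected.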
